A study of Mus musculus with 8 samples.

Results

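Genes outside the extracellular matrix that mark meningeal fibroblasts, or are known from them, were followed in cultured mouse optic nerve. They were the transcription factors Foxc1, Foxc2, Foxd1, Tbx18, Twist1 and Zic1, the enzymes Inmt and Ptgds, the transporter Slc6a13 and the membrane protein Emp1. A probe set, the group of short array probes that reads one transcript, was taken when it was annotated to a single symbol and that symbol was one of these names. This gave 10 of 18193 genes and 15 of 45037 probe sets, and each gene was read at the probe set with the highest mean log2 signal over the 8 arrays. Optic nerves from mice aged 35 to 45 days were kept for 3 days in vitro in control medium with saline (4 arrays) or in medium with 20 mM lithium chloride (4 arrays). The labels give C57BL/6 mice and 6 nerves for every sample, whereas the methods name the C57/BL10 strain and 12 nerves from 6 mice. No source states whether replicates were independent cultures, so p-values speak only to the scatter among these arrays and that scatter may be technical. The nerves had been stripped of the arachnoid membrane, the retina was left attached in culture, the medium contained horse serum in both groups, and each array read a mixture of cells.

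The optic nerve is wrapped in meninges, whose inner layer, the pia, is made by fibroblasts of neural crest and mesodermal origin. Forkhead, T-box, bHLH and zinc finger factors set up this tissue in the embryo and some stay expressed in the adult. Adult leptomeningeal fibroblasts also carry transporters and enzymes that handle small molecules at the border between brain and cerebrospinal fluid.

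Signals of all arrays had been scaled to a common trimmed mean of 100, and the median signal was 12.3 to 17.5. The background of an array, taken as the highest signal of its 27 control probe sets for added poly-A transcripts, was 2.13 to 5.64. Gapdh read at its 3' end minus its 5' end, a sign of RNA integrity, gave log2 values of 0.34 to 0.40 in control and 0.35 to 0.53 in lithium, and lithium array 1 held the highest value. The fibroblast collagens, small proteoglycans and other matrix proteins used as markers of these cells were above background, with summed signals of 3484 to 5866 in control. Markers of retinal neurons, which would mark carry-over of retina, summed to 19.2 to 33.6 in control and 24.8 to 36.7 in lithium, and 3 of 5 lay under background on all arrays.

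Of the 10 genes, 3 were lower in lithium (Foxc1, Twist1 and Inmt), 0 were higher and 7 did not pass, by limma at an adjusted p under 0.05. Over all genes 2.05% were called lower and 1.18% higher. At an unadjusted p under 0.05, 7 of the 10 were lower, beside 12.6% of all genes, and 0 were higher, beside 9.38% of all genes. For 7 genes (Foxc1, Foxc2, Foxd1, Tbx18, Twist1, Zic1 and Inmt) all lithium signals lay below all control signals, a pattern seen in 8.92% of all genes. The median log2 difference was -1.54 for the 10 genes and -0.00276 for all genes. The 10 genes were chosen with earlier results of these data known, so their contrast with all genes is a description and not independent evidence. In whole nerve, fewer cells of a type and less RNA per cell cannot be told apart. When same-numbered arrays were treated as pairs (a replicate block), 1 of the 10 genes, Inmt, stayed past the threshold, beside 0.346% of all genes called lower. Where a 2-fold change and a signal of 200 in the higher group were also required, 1 (Inmt) was called, beside 0.242% of all genes.

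**Figure D1:**
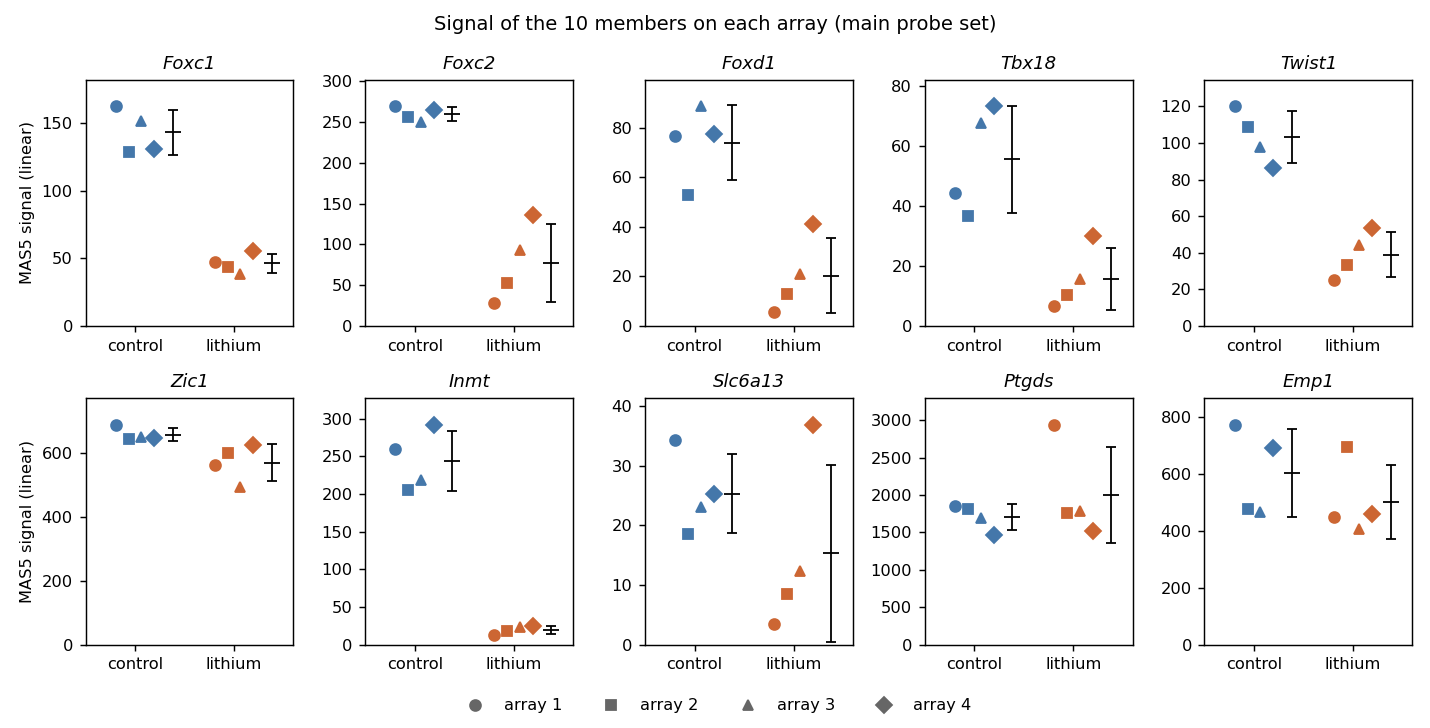
Signal of the main probe set of each of the 10 genes (linear MAS5 units, linear axis) on the 4 control and 4 lithium arrays, with each point 1 array. Inmt lay at 205 to 292 in control and at 12.9 to 24.9 in lithium, whereas the ranges of Ptgds, Emp1 and Slc6a13 overlapped.

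Inmt, indolethylamine N-methyltransferase, transfers methyl groups to tryptamine and related amines. Its probe set, 1418697_at, read 260.1, 205, 219 and 292 in control arrays 1 to 4. The lithium arrays, in the same order, read 12.9, 17.4, 23.5 and 24.9. The lowest control signal was far above the highest lithium signal. Means were 244 ± 39.6 in control and 19.7 ± 5.56 in lithium (SD, n = 4 each), a log2 difference of -3.67 (SE 0.23) or a 12.7-fold fall, with an adjusted p of 0.00688 by limma. With the block the adjusted p was 0.0477. The difference was -3.95 among arrays 1 and 2 and -3.39 among arrays 3 and 4, the pairs of arrays that resembled each other. It passed in all 8 fits with 1 array left out, with adjusted p between 0.00973 and 0.0280.

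Foxc1 is a forkhead factor that the embryonic meninges need to form. At probe set 1419485_at the control arrays read 163, 128, 152 and 131 and the lithium arrays 47.2, 43.7, 38.6 and 55.6. The lithium signals were close to each other and apart from all control signals. The log2 difference was -1.64 (SE 0.14), from 143 ± 16.5 to 46.3 ± 7.14 (SD, n = 4 each), with an adjusted p of 0.0108 by limma. With the replicate block the adjusted p was 0.0564, which missed the threshold, and the difference was -1.67 among arrays 1 and 2 and -1.60 among arrays 3 and 4. A further Foxc1 probe set, 1419486_at, fell from 32.9 ± 3.48 to 12.01 ± 1.51, a difference of -1.46, with an adjusted p of 0.0108 without and 0.0496 with the block. Each of the 8 left-out fits kept the first probe set past the threshold, with adjusted p from 0.0179 to 0.0421.

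Twist1, a bHLH factor of mesenchymal cells, read 120.2, 109, 97.9 and 86.6 in control and 25.3, 33.5, 44.1 and 53.4 in lithium. The groups did not overlap, and lithium array 4 came nearest to control. The log2 difference was -1.45 (SE 0.24), from 103 ± 14.4 to 39.1 ± 12.3 (SD, n = 4 each), with an adjusted p of 0.0376 by limma and 0.115 with the replicate block. The call was lost in 7 of 8 left-out fits (adjusted p up to 0.0988) and kept only without lithium array 4 (0.0414). The difference was -1.97 among arrays 1 and 2 and -0.92 among arrays 3 and 4, and the term for their difference had a p of 0.00993 and an adjusted p of 0.333 by limma.

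RefSeq promoter sequences, from 250 bases before to 50 bases after each start on GRCm38.p6, were at hand for 9 of the 10 genes, and there was none for Foxc2. Shown are the promoters of the 3 genes called lower and that of Zic1, the transcription factor with the smallest difference, so that their letters can be read beside their signals. Capitals mark the E-box CANNTG and the TATA box TATAAA, searched on both strands together with the TCF/LEF core CTTTGAT, the forkhead core TGTTTAC and the T-box core GGTGTGA. Inmt lies at chr6:55174941-55175240 on the minus strand, Foxc1 at chr13:31806396-31806695 on the plus strand, Twist1 at chr12:33957421-33957720 on the plus strand and Zic1 at chr9:91365719-91366018 on the minus strand.
Inmt: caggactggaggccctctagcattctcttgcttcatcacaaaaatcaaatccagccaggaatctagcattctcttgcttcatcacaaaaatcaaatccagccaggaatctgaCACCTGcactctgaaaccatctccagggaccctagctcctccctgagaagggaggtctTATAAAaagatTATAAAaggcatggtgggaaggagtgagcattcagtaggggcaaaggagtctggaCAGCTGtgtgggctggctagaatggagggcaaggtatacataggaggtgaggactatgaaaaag
Foxc1: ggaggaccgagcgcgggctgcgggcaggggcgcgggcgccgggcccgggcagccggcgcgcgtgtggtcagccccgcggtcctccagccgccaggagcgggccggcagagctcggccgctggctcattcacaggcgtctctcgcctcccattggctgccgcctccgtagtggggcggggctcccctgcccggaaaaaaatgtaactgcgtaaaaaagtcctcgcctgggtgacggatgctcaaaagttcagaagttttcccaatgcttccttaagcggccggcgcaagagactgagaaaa
Twist1: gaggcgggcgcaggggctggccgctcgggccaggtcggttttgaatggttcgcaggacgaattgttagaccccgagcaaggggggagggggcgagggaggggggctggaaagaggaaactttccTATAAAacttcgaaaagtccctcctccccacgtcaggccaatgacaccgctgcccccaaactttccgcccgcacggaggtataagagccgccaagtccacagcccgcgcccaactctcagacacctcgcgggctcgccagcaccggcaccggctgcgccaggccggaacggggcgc
Zic1: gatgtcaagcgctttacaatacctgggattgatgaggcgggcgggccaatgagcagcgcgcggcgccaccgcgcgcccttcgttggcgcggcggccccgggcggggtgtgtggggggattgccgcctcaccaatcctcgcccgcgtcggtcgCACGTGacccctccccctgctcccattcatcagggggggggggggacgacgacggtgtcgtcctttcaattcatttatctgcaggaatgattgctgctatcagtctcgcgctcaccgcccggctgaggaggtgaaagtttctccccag
The Inmt promoter held 2 TATA boxes, starting 80 and 69 bases before the start, and 2 E-boxes. Twist1 held 1 TATA box, 126 bases before the start, Zic1 held 1 E-box, and Foxc1 held neither motif. Over 32851 promoters 13.6% held a TATA box and 72.3% an E-box. The GC content was 47.7% for Inmt, 67.3% for Foxc1, 66.0% for Twist1 and 65.3% for Zic1, against a median of 52.7%. None of the 12 promoters of these genes held the TCF/LEF core, which 3.73% of all promoters held. The forkhead core stood in 1 of the 12 (Emp1) and in 3.65% of all, and the T-box core in 1 of the 12 (Ptgds) and in 3.98% of all. A match of letters is a description and not a bound site.

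Foxc2, a relative of Foxc1 that also acts in lymphatic vessels, read 269, 256, 249.9 and 265 in control and 27.6, 52.4, 92.8 and 136 in lithium. The control arrays were tight, and every lithium array lay below them at a very different distance. The log2 difference was -1.99 (SE 0.47), with an adjusted p of 0.0843 by limma. It was -2.79 among arrays 1 and 2 and -1.20 among arrays 3 and 4 (adjusted p of that difference 0.407), and with a term for the array pairs the adjusted p was 0.0447.

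Foxd1, a forkhead factor of stromal cells, read 76.9, 53.1, 88.8 and 77.6 in control and 5.83, 13.1, 21.1 and 41.1 in lithium, a log2 difference of -2.18 (SE 0.57) with an adjusted p of 0.107 by limma. Tbx18, a T-box factor of mesenchyme and mural cells, read 44.4, 36.7, 67.8 and 73.4 in control and 6.65, 10.3, 15.6 and 30.0 in lithium, a log2 difference of -2.00 (SE 0.49) with an adjusted p of 0.0919. Both groups of signals were apart for each gene, but neither passed the threshold. With a term for the array pairs the adjusted p was 0.0456 for Foxd1 and 0.0177 for Tbx18. A further Tbx18 probe set, 1449871_at, had a log2 difference of -1.95 (SE 0.75) with an adjusted p of 0.239, and its groups did not overlap either. On lithium array 1 this probe set read 1.49, under that array's background of 4.33, so its difference is imprecise.

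Zic1 is a zinc finger factor of the meninges and of neural progenitors. It read 691, 647, 650.2 and 649 in control and 563, 600.3, 495 and 628 in lithium, so that the groups were apart by a small gap. The log2 difference was -0.21 (SE 0.08), with an adjusted p of 0.254 by limma. A further probe set, 1439627_at, gave -0.21 with an adjusted p of 0.508, and its groups overlapped.

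**Figure D2:**
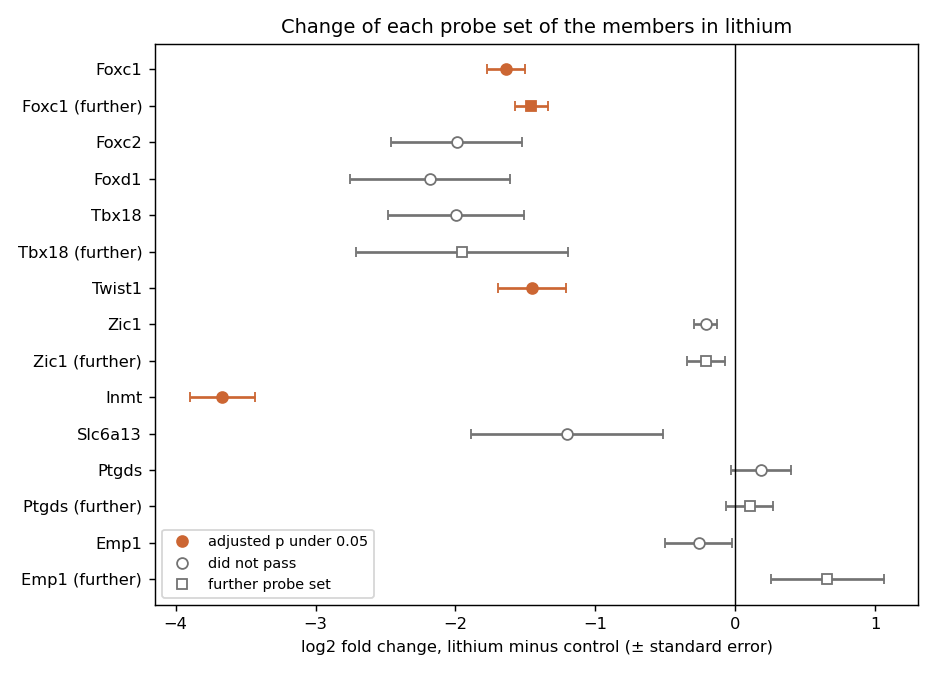
Log2 difference, lithium minus control, with its standard error for each of the 15 probe sets of the 10 genes, with main and further probe sets of a gene marked. The main probe sets of Inmt, Foxc1 and Twist1 lay at -3.67, -1.64 and -1.45, and that of Zic1 at -0.21.

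The differences of the 6 transcription factors were set against each other within arrays in 15 pairs, chosen after their values were seen. By an exact two-sided permutation test over 70 arrangements of the arrays, whose smallest possible p is 0.0286, 0 pairs passed after adjustment over the 15. That test does not use the pairing of same-numbered arrays, and exchanges within the 4 pairs allow 16 arrangements and no exact p under 0.125. Zic1 had the smaller difference in each of its 5 pairs, each with an exact p of 0.0286 and an adjusted p of 0.0857, from -1.24 (SE 0.25) against Twist1 to -1.97 (SE 0.60) against Foxd1. These 5 pairs stood at the smallest possible p and could pass only if more of the 15 had also reached it. The adjusted test therefore cannot decide whether Zic1 differed from the others. Foxc1 and Foxc2 differed by 0.35 (SE 0.50), with an exact permutation p of 0.60, which does not show that they moved alike.

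Slc6a13 carries GABA and taurine, and meningeal cells are among its known sites. Its signals were 34.3, 18.5, 23.1 and 25.2 in control and 3.39, 8.52, 12.3 and 36.9 in lithium. Lithium array 1 lay under that array's background, and lithium array 4 lay above every control array. The log2 difference was -1.20 (SE 0.69), with an adjusted p of 0.432 by limma, and it was -2.23 among arrays 1 and 2 and -0.18 among arrays 3 and 4.

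Ptgds makes prostaglandin D2 and is made by leptomeningeal cells and by oligodendrocytes. It read 1856, 1811, 1695 and 1463 in control and 2941, 1754, 1784 and 1514 in lithium. Lithium array 1 stood high and the other 3 lithium arrays lay within the control range, and the log2 difference was 0.19 (SE 0.21) with an adjusted p of 0.721 by limma. The summed signal of mature oligodendrocyte markers was also highest on lithium array 1, at 14458 against 10851 to 11514 on the other 7 arrays, and its part in the Ptgds signal was not tested. A further probe set, 1423860_at, gave 0.10 with an adjusted p of 0.819.

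Emp1, a membrane protein of the PMP22 family, read 773, 476, 467 and 691 in control and 448, 694, 404 and 458 in lithium. The groups overlapped, and the log2 difference was -0.26 (SE 0.24) with an adjusted p of 0.664 by limma. A further probe set, 1459171_at, lay under background on all 8 arrays.

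The 4 lithium arrays differed from each other. Against the mean of the control arrays, the median log2 difference of the 10 genes was -2.44, -1.66, -1.35 and -0.83 on lithium arrays 1 to 4. Lithium array 4 held the highest signal of the group for 8 of the 10 genes, and lithium array 1 the lowest for 6. On the same arrays the 3' minus 5' value of Gapdh was 0.53, 0.43, 0.42 and 0.35 and the median signal 12.3, 15.2, 16.5 and 16.02, and the part of RNA integrity in the spread was not tested. The median of all genes was -0.06, -0.03, 0 and 0. The fibroblast matrix markers stood beside them at -2.80, -1.71, -1.24 and -1.04. Between arrays, the difference of Foxc1 varied by 0.53 and that of Zic1 by 0.34, against 2.30 for Foxc2, 2.82 for Foxd1, 2.17 for Tbx18 and 3.44 for Slc6a13.

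**Figure D3:**
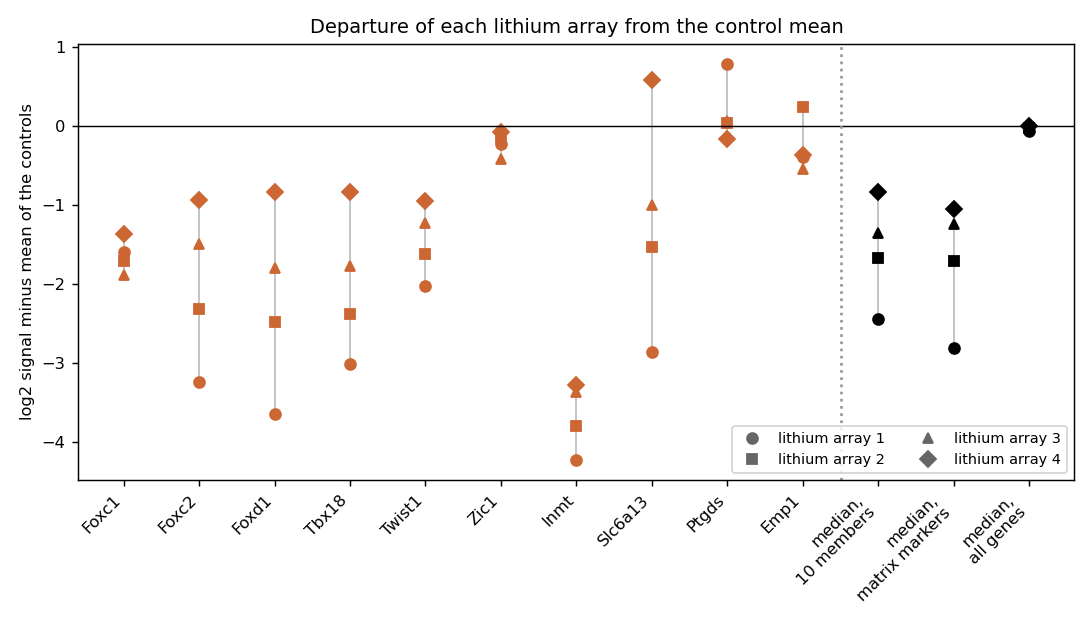
Log2 difference from the mean of the control arrays (vertical axis) on each of the 4 lithium arrays for the 10 genes, with the medians of the 10 genes, of the fibroblast matrix markers and of all genes as further columns of points on the right. The median of the 10 genes lay at -2.44 on array 1 and at -0.83 on array 4, and the median of all genes at -0.06 and 0.

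Set against the mean of 10 fibroblast matrix markers on the same array (their mean log2 difference was -1.57), a comparison chosen after the values were seen, Inmt stood below them, at -2.10 (SE 0.24), with an exact permutation p of 0.0286 and an adjusted p of 0.0714 over the 10 genes. Ptgds (1.75), Zic1 (1.35) and Emp1 (1.30) stood above the markers, each with the same exact p of 0.0286 and adjusted p of 0.0714. None of the 10 passed after adjustment. Genes at 0.0286, the smallest possible p, could pass only if more of the 10 had also reached it, so the adjusted test cannot decide for them. Exchanges within same-numbered pairs again allow no exact p under 0.125. The differences of Foxc1 (-0.07, SE 0.45), Twist1 (0.12, SE 0.32), Foxc2 (-0.43, SE 0.24), Foxd1 (-0.62, SE 0.25), Tbx18 (-0.43, SE 0.25) and Slc6a13 (0.36, SE 0.40) from the markers did not pass by the same exact test.

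Among 23 measured other transcription factors of mesenchyme and meninges, 3 were lower in lithium, 0 were higher and 20 did not pass, with a median of -0.55. Foxf1, a forkhead factor of mesoderm, had a log2 difference of -1.87 with an adjusted p of 0.0341 by limma, Zic2 -0.83 (0.0360), and Tbx15, named after its value was seen, -1.96 (0.0385). None passed with the replicate block (adjusted p 0.0619 to 0.103), and the count was 0 or 1 with any 1 array left out. At an unadjusted p under 0.05 by limma, 10 of the 23 factors were lower and 1 was higher, beside 12.6% and 9.38% of all genes. Among 23 transporters, junction proteins and retinoid genes of the meningeal barrier, 2 were lower, the organic anion transporter Slc22a8 (-2.14, adjusted p 0.0473) and Igfbp2, a binding protein of insulin-like growth factors (-1.21, 0.0429). The median of these 23 genes was -0.78, with -1.20 among arrays 1 and 2 and -0.27 among arrays 3 and 4, and 0 or 1 passed with any 1 array left out and none with the block (Slc22a8 0.0811, Igfbp2 0.0686). At the unadjusted level, 8 of the 23 were lower and 1 was higher, beside the same shares of all genes. The lithium signals of Slc22a8 were 2.10, 1.78, 6.17 and 3.88, of which 2 lay under the background of their array, so its difference is imprecise. Aldh1a2, which makes retinoic acid in meninges and was among the genes most like Foxc2, read 335 ± 66.1 in control and 66.7 ± 67.0 in lithium, with an adjusted p of 0.113.

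For the families of the single members, 0 of 5 other Slc6 transporters of GABA, taurine and related solutes passed (median 0.10; lowest adjusted p 0.559, Slc6a9), and 0 passed at an unadjusted p under 0.05 by limma. Of 6 other small-molecule methyltransferases 0 passed (median 0.11; lowest adjusted p 0.169, Gnmt), with 1 lower and 1 higher at the unadjusted level. Of 3 relatives of Emp1 0 passed (median -0.24), with 1 lower and 0 higher at the unadjusted level, and Emp3 had the lowest adjusted p (0.0541). Of 16 other prostaglandin genes, 1 was lower, Hpgd, the enzyme that breaks prostaglandins down (-2.35, adjusted p 0.0162), and the median was -0.31. Its lithium signals were 4.59, 2.58, 3.75 and 2.03, of which 2 lay under the background of their array, so this difference is imprecise too. Hpgd passed in 6 of 8 left-out fits (not without control array 3 or control array 4, adjusted p up to 0.0525), and not with the block (adjusted p 0.0662). At the unadjusted level 5 of the 16 prostaglandin genes were lower and 1 was higher, beside 12.6% and 9.38% of all genes.

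**Figure D4:**
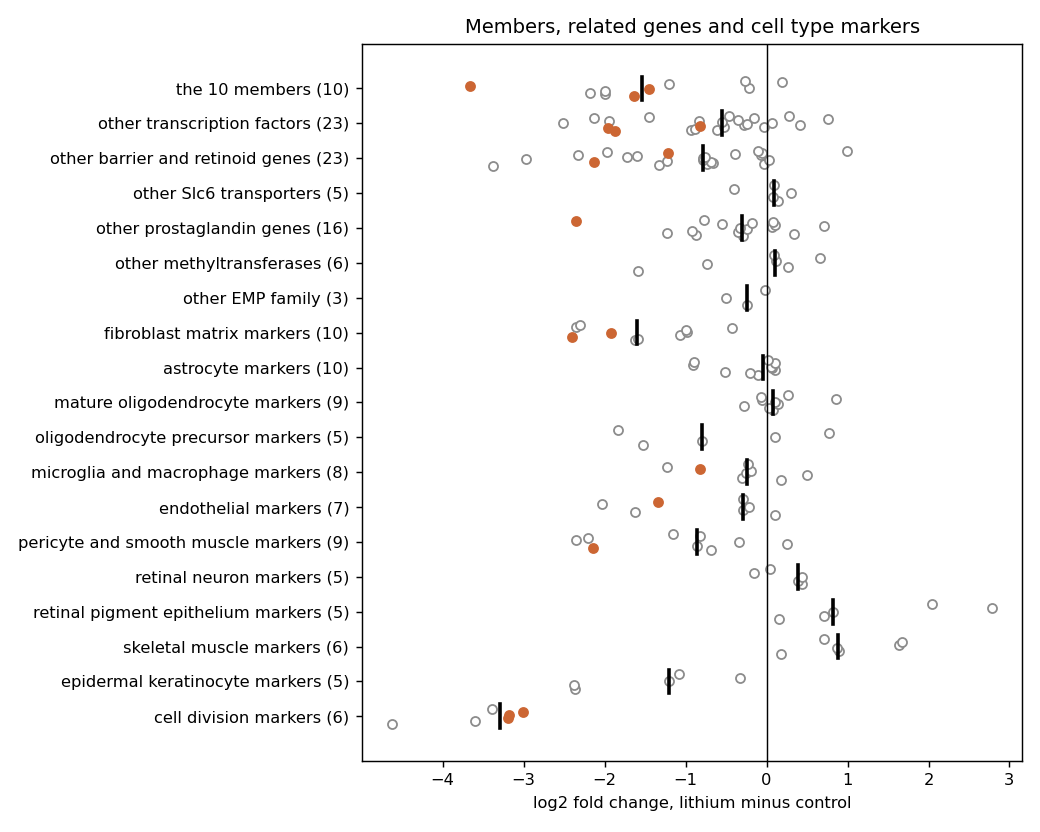
Log2 difference, lithium minus control, of each measured gene of the 10 and of the related and marker lists, with the median of each list as a bar. The median of the 10 genes lay at -1.54, that of the fibroblast matrix markers at -1.60 and that of the astrocyte markers at -0.04.

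Markers of other cells were read on the same arrays. Fibroblast matrix markers were lower at 2 of 10 genes by limma (Col3a1, adjusted p 0.0321, and Lum, 0.0469), and their summed signals were 1023 to 2726 in lithium against 3484 to 5866 in control, without overlap. Neither gene passed with the block, and Col3a1 passed in 1 of 8 and Lum in 0 of 8 left-out fits. Cell division markers were lower at 3 of 6 genes (Prc1, adjusted p 0.0104, Birc5, 0.0338, and Bub1b, named after its value was seen, 0.0401), with a median of -3.29 and summed signals of 68.9 to 235 against 809 to 2141. Prc1 alone of these also passed with the block and in all 8 left-out fits. Of the vascular and immune markers, 1 of 9 pericyte and smooth muscle genes (Pdgfrb, adjusted p 0.0401; median of the list -0.86), 1 of 7 endothelial genes (Kdr, 0.0321; -0.29) and 1 of 8 microglia and macrophage genes (Tyrobp, 0.0374; -0.24) were lower, and each passed in 1 of 8 left-out fits and not with the block. Summed signals were also apart for the endothelial markers (144 to 323 in lithium, 389.7 to 626 in control) and the oligodendrocyte precursor markers (577 to 800.4 in lithium, 1019 to 1154 in control). Flt1 held most of the endothelial sum in control (254 to 368, against 37.0 to 145 in lithium). Pdgfra held much of the precursor sum (425 to 599 in control, 101 to 312 in lithium). Lithium signals lay below all control signals for 3 of the 7 endothelial and 2 of the 5 precursor genes, beside 8.92% of all genes. Lithium signals of Olig2 lay above (228 to 368, against 154 to 198 in control). Signals of Cspg4 and Gpr17 overlapped between the groups (log2 differences 0.10 and -0.80), so the 5 precursor genes did not move together. Astrocyte markers summed to 8234 to 8787 in control and 7590 to 8906 in lithium, with a median of -0.04 and 0 of 10 past (lowest adjusted p 0.114, Aldoc). Mature oligodendrocyte markers had a median of 0.08 with 0 of 9 past (Aspa, 0.0647), and oligodendrocyte precursor markers -0.80 with 0 of 5 (Lhfpl3, 0.0672). Sums of retinal pigment epithelium markers were 95.7 to 188 in control and 220.2 to 578 in lithium, with 0 of 5 past (Tyrp1, adjusted p 0.330). On lithium arrays 3 and 4 the sums (308 and 315) were mostly Rlbp1 (298 and 302), whose groups overlapped. Rpe65, of the same list, lay under background on all arrays of both groups. Lithium arrays 1 and 2 stood apart for 2 other markers. Tyrp1 read 65.0 and 18.5 and Mlana 280.1 and 75.2, against at most 1.84 for Tyrp1 and 16.7 for Mlana on the other 6 arrays. The summed skeletal muscle markers were 288 on lithium array 2 and 15.2 to 73.7 on the others, and the keratinocyte markers 1129 on control array 4 and 55.3 to 268 on the others. The lowest adjusted p was 0.640 among the retinal neuron markers (Rcvrn), 0.337 among the 6 skeletal muscle markers (Myh4; median 0.88), 0.234 among the 5 keratinocyte markers (Krt1; median -1.21) and 0.709 for the single Schwann cell marker measured (Pmp2). At an unadjusted p under 0.05 by limma, 12.6% of all genes were lower and 9.38% higher. At that level 7 of 10 fibroblast matrix and 6 of 6 cell division genes were lower. So were 4 of 9 pericyte and smooth muscle, 3 of 7 endothelial and 2 of 8 microglia and macrophage genes, with 0 higher in these lists. At that level, 1 astrocyte, 2 oligodendrocyte precursor and 2 keratinocyte genes were lower and 1 mature oligodendrocyte and 1 oligodendrocyte precursor gene higher, with none in the retinal, pigment epithelium, muscle or Schwann lists. The part of these cells in the differences above was not tested.

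Of the 20 genes that are the nearest measured neighbours of the 10 on the chromosomes, 1 was lower, Nt5e beside Tbx18 (210.3 ± 26.4 to 67.8 ± 19.4, SD, n = 4 each; log2 difference -1.68, adjusted p 0.0263 by limma), and 0 were higher. Foxf2 beside Foxc1 (-0.93, adjusted p 0.161), Zic4 beside Zic1 (0.41, 0.412) and Slc6a12 beside Slc6a13 (0.10, 0.957) did not pass. Over the 8 arrays and 5426 candidate genes, the log2 signals most like those of Inmt by Pearson correlation were Ghr (0.993), Saa1 (0.993) and Fstl1 (0.992), and those most like Foxc1 were Tpm1 (0.985), Ptgs2 (0.980) and Fzd1 (0.976). For Twist1 they were Tcf7l2 (0.987), Axl (0.983) and Cxcl12 (0.981), and for Foxc2 Cetn3 (0.997), Aldh1a2 (0.992) and Socs3 (0.990). For Zic1 they were Pmepa1 (0.948), Vcl (0.947) and Cul4a (0.944), for Ptgds Atp5k (0.992), Snrnp27 (0.987) and Atp5g1 (0.986), and for Emp1 Hmgn1 (0.901), Rbm7 (0.899) and Ptbp1 (0.847). These points share the 2 groups and the arrays, and the correlations are a description.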

How the data were processed

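The arrays were Affymetrix Mouse Genome 430 2.0. The values deposited by the authors are linear MAS5 intensities for each probe set on each array, brought to a shared trimmed mean, with no log transform and no centring. Of 45101 probe sets, 64 controls were left out. A table paired 34958 with 1 gene symbol, 932 with several (not named here) and 9211 with none. For 34754 the Entrez identifier was in a RefSeq table, and 0 symbols were updated.

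After a floor of 1, log2 intensities of all 45037 probe sets entered one fit of group (lmFit, eBayes; limma 3.58.1, R 4.3.3) with Benjamini-Hochberg adjustment over all probe sets and a threshold of 0.05. Means and SDs are of linear intensities. The fold limit of 2 and level of 200 are those the paper names. It does not say to which group the level applies, and the mean linear intensity of the higher group was used. The members, gene lists, motifs and tests were chosen with earlier results of these data known. All members are named, with up to 2 genes per direction of each other list by lowest adjusted p, or the lowest where none passed, and the 3 genes most correlated with each member above a level of 100, among genes at 200 or more. Flt1, Pdgfra, Olig2, Cspg4, Gpr17, Rlbp1, Rpe65 and Mlana were named after their values were seen. Control and lithium arrays sharing a number deviated together in each of the 4 pairs (correlation 0.130 to 0.197, limit 0.1), and the numbers were treated as pairs on this ground alone, since no label states a pairing. Differently numbered arrays inside the sets 1 with 2 and 3 with 4 deviated together too (0.0706 to 0.131). The fit was tested on simulated data. Alternatives covered normalization, filters, offset, probe set choice, variance model, weights, pairing and left-out arrays. Figures were drawn with matplotlib 3.10.9. Precision is limited by how many arrays there are and by signal over background.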

Additional observations from a re-analysis of the deposited data

Results flagged for a closer look

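The signal of Zic1 on control array 1 was 691, while the other 3 control arrays lay between 647 and 650.2. The gap was 0.923 of the range of the group, above Dixon's limit for 4 arrays. Of 30 groups tested 1 stood out in this way, and chance gives about 1 in 20.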

How the results depend on the processing

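Of the 10 genes 3 were called lower, and the count was 6 with arrays centred on the median (2.36% of all genes), 6 with log2 of the signal plus 16 (3.47%), 6 with a term for the array pairs (5.71%), 1 with the fold and level limits and 1 with the replicate block. Within arrays 1 and 2 alone, and within arrays 3 and 4 alone, it was 0 by limma, with 6 at an unadjusted p under 0.05 in each, beside 14.1% and 10.8% of all genes. It was 2 to 3 with any 1 array left out, and 2 (Inmt and Foxc2) where the test was confined to signals of 200 or more, a level Foxc1 and Twist1 did not reach. Quantile normalization (2.64% of all genes called lower) and array weights (2.23%) each gave 3, as did averaged probe sets and no _x_at or _s_at probe set. A trended and robust variance gave 4 (3% of all genes). No gene of the 10 was called higher under any of these settings. The share over all genes is not given here for the left-out fits, the level of 200 or the probe set choices. With median centring the adjusted p was 0.0343 for Foxc2, 0.0470 for Foxd1 and 0.0389 for Tbx18. The log2 difference of Ptgds ranged from -0.0165 (without lithium array 1) to 0.303 with 1 array left out, and that of Emp1 was 0.198 with its probe sets averaged, 1 of which lay under background. The other causes were not tested. Exchanging arrays within same-numbered pairs, chosen after seeing the data, allows no exact p under 0.125. The outcome there, 0 of the 15 factor pairs and 0 of the 10 comparisons with matrix markers past the threshold, was therefore fixed in advance. With 4 arrays a group, no exact permutation test could go below 0.0286, and signals near background, as for Slc6a13 in lithium, limit their own differences.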
